A study of Mus musculus with 12 samples.

Results

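The subject is the untreated mouse blastocyst as 4 arrays labelled control blastocyst recorded it, out of 12 arrays in 3 groups. Their members were taken from the titles alone, and no array of a treated group enters any value below. Per the labels, total RNA of normal blastocysts was amplified and biotin-labelled with an Affymetrix assay for small samples. The study as a whole asked how patterns of Ca2+ oscillation in the fertilized egg bear on later gene expression, and the controls are its untreated arm. The labels used here give no strain, embryo age, embryo number per array or collection day, and do not state whether each replicate came from its own embryos, so the spread given here may be technical.

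The blastocyst is the stage at which the mouse embryo is ready to implant. An outer epithelium, the trophectoderm, pumps fluid into a cavity and later forms the placenta, while the inner cell mass holds the pluripotent epiblast and the primitive endoderm, which lines the yolk sac. By this stage most maternal RNA of the egg has been replaced by RNA from the embryo's own genome. An array of whole embryos measures all of these cells together, and fewer cells of a type cannot be told apart from less RNA per cell.

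Each array measured 45037 probe sets, groups of short probes that together report 1 transcript, beside 64 array controls. Signals are MAS5 intensities scaled to a 2% trimmed mean of 500 on every array. Of the probe sets, 34945 were paired with a single gene, which gave 18193 genes, each represented by its probe set of highest mean. Classes of signal were set by rank and by a reference of 83 probe sets for olfactory, vomeronasal and taste receptors, sensory genes with no known use in the embryo. The brightest class is the top 1% of probe sets (450, mean signal 9880 to 19677) and the bright class the rest of the top 10% (4054, from 1528). The near-background class lies at or below the 95th percentile of the receptor reference, a signal of 323, and the moderate class (10072 probe sets) lies between. Signal depends on how well each probe binds as well as on RNA, so ranks order probe sets and not transcript abundance.

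Near background were 30461 probe sets (67.6%), which held the best probe set of 9534 genes (52.4% of all genes). The 450 brightest probe sets carried 17.2% to 18.5% of the summed signal of each array. The 4 arrays differed least at the top of the scale. The median coefficient of variation was 5.35% in the brightest class, 6.39% in the bright, 9.95% in the moderate and 23.1% in the near-background class. The limit of 323 was generous against the bacterial control probes on the same arrays, whose median lay between 21.9 and 36.1, so a gene called near background here had no signal beyond that of the brighter receptor probes.

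The brightest genes of the control blastocyst served protein synthesis, protein folding and energy supply. Rps18, a protein of the small ribosomal subunit, led all genes with a signal of 19677 ± 845 (SD, n = 4 here and below), and its values on controls 1 to 4 were 19089, 20659, 20094 and 18866. Hspa8, the constitutive cytosolic Hsp70 chaperone, came next with 16716 ± 1187, and Rpl13a, of the large ribosomal subunit, followed with 16650 ± 1101. Hspa8 and Rpl13a differed by less than their spread over arrays. The 25 genes of highest signal held 9 genes of the cytosolic ribosome, among them Rps3a1 (16118 ± 860), Rplp2 (16096 ± 1120), Rps28 (15660 ± 498) and Rps9 (15644 ± 578). Npm1, a nucleolar chaperone of ribosome assembly, reached 15822 ± 928, and Eef1a1, which delivers aminoacyl-tRNA to the ribosome, reached 14696 ± 1486.

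Outside the ribosome, the same 25 genes covered several basic tasks. Nme2, a nucleoside diphosphate kinase, had a signal of 15770 ± 1081. Serbp1, an mRNA-binding protein found on ribosomes, had 15512 ± 887, and Hmgn1, which binds nucleosomes, had 15439 ± 740. Mitochondria were represented by Tomm20, a receptor of the protein import machinery (15416 ± 1217), by Slc25a5, the ADP/ATP carrier (15235 ± 777), and by Hadh, an enzyme of fatty acid oxidation (15142 ± 1172). Txn1, the cytosolic thioredoxin, had 14992 ± 800 and Hsp90aa1, a cytosolic Hsp90, 14955 ± 637. Psmc2, an ATPase of the proteasome (14659 ± 437), Cct4, a subunit of the chaperonin that folds actin and tubulin (14517 ± 639), and Ran, the GTPase of nuclear transport (14262 ± 808), were in the same range. Crxos, a homeobox gene (14426 ± 860), and Calcoco2, an autophagy receptor (14327 ± 770), stood beside them. All 25 probe sets were in the brightest class on the mean of the 4 arrays, and their coefficients of variation ran from 2.98% for Psmc2 to 10.1% for Eef1a1.

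Among 138 stems of gene symbols with at least 15 measured genes, the 5 with the highest median rank were Rpl, Rps, Eif, Timm and Mrpl. These hold mainly ribosomal proteins of both subunits, initiation factors, mitochondrial import proteins and proteins of the large mitochondrial ribosomal subunit. A stem is only the letters before the first digit, so it can take in other genes. Of the 30 Rps genes 7 were near background, against 2 of the 45 genes in the list of cytosolic ribosomal proteins. The 24 Rpl genes had a median signal of 11656 and the 47 Mrpl genes one of 2722. The 5 stems of lowest median rank were Prl, Krtap, Vmn, Pcdhb and Olfr, which are prolactin-family hormones, hair keratin-associated proteins, vomeronasal receptors, clustered protocadherins and olfactory receptors. All 17 Prl genes and all 22 Pcdhb genes were near background, with median signals of 46.8 and 64.3.

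Of 45 cytosolic ribosomal protein genes, 29 were in the brightest class, 10 bright, 4 moderate and 2 near background. Their median signal was 12006, against 296 over all 18193 genes. The exceptions at the bottom were Rps27 (263 ± 25.1) and Rps16 (7.69 ± 3.69), each measured by a single probe set. Both are proteins of the cytosolic ribosome, and why these probe sets gave little signal was not tested. The ribosomal protein genes are known for transcripts that begin with a tract of pyrimidines, the TOP tract, through which growth signals control their translation. The start sites of 6 of the brightest listed members with a RefSeq promoter are shown for that tract, as 15 bases before and 15 after the annotated start in build GRCm38.p6, with the first run of a C and at least 4 further pyrimidines, searched from 5 bases before the start onward, in capitals.
Rps18 (chr17:33955651-33955680, minus strand): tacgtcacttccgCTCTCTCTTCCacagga
Rpl13a (chr7:45128731-45128760, minus strand): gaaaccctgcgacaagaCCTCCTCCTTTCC
Rplp2 (chr7:141447636-141447665, plus strand): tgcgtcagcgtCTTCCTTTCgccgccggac
Rps28 (chr17:33824548-33824577, minus strand): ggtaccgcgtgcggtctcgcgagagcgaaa
Rps9 (chr7:3704026-3704055, plus strand): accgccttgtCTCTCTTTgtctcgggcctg
Rpsa (chr9:120127751-120127780, plus strand): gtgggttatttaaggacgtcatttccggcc
Such a run was found in 4 of these 6 windows and not in those of Rps28 and Rpsa. Over the 40 listed genes with a promoter, 20 (50%) held such a tract between 5 bases before and 10 bases after the start, against 18.5% of all 27025 RefSeq promoters in the table. A tract that began exactly at the annotated start was present in 22.5% of the 40 and in 2.49% of all promoters.

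The rest of the translation, respiration and protein turnover machinery lay mostly in the top 10%. Among 63 translation factor genes, 14 were brightest and 31 bright, led by Eef1a1, Eef1b2 (13919 ± 793) and Eif2s2 (13570 ± 180), with a median of 5039. Eif4a3, an RNA helicase of the exon junction complex, was the lowest at 47.5 ± 16.1 on its single probe set. Among 82 genes of oxidative phosphorylation, 12 were brightest and 56 bright. Cox5a (13902 ± 753), Uqcrb (12851 ± 942) and Cycs (12783 ± 491), which belong to the cytochrome part of the respiratory chain, were highest. The 6 members near background were Cox8b (47.2 ± 7.75), Cox6b2 (65.0 ± 24.7), Ndufb4 (116), Cox4i2 (124 ± 19.2), Cox7b2 (172) and Cox7c (263). Cox8b, Cox6b2, Cox4i2 and Cox7b2 are forms of cytochrome oxidase subunits known for restriction to muscle, lung or testis.

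Proteasome genes split in the same manner. Of 47, 9 were brightest and 26 bright, with Psmc2, Psmb4 (13010 ± 692) and Psmc4 (11853 ± 673) at the top and a median of 4968. The 4 members near background were Psma8 (112 ± 44.0), Psmb11 (35.6 ± 21.4), Psmb9 (27.4 ± 14.8) and Psmb8 (22.2 ± 5.80). Psma8 is the testis form, Psmb11 the thymus form and Psmb8 and Psmb9 the interferon-induced forms of proteasome subunits. The mitochondrial ribosome was uniform: of 76 genes, 59 were bright, 17 moderate and 0 near background, between Mrps11 (590 ± 45.4) and Mrpl51 (9606 ± 421). In the lysosome list, 18 of 26 were bright, led by Psap (9671 ± 645), Ctsc (9474 ± 468) and Npc2 (9424 ± 469), and only Ctss, a cathepsin of antigen-presenting cells, was near background (60.0 ± 32.5).

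**Figure D1:**
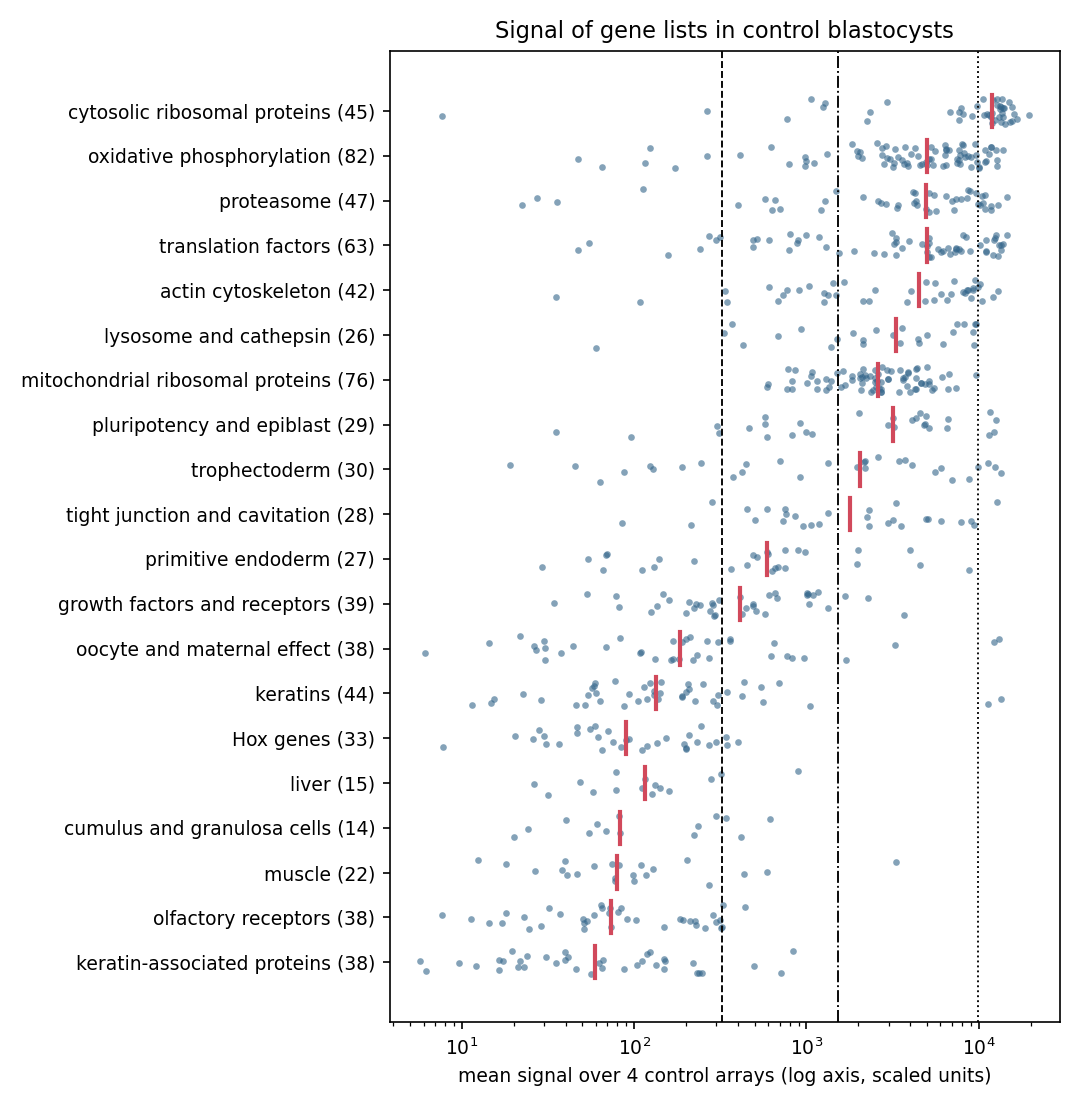
Mean signal over the 4 control arrays (log axis, scaled units) of every measured gene of 20 lists, 1 point per gene at its brightest probe set, with the number of genes in parentheses and the red bar at the list's median. The dashed line is the near-background limit of 323, the dash-dotted line the lower end of the bright class and the dotted line that of the brightest class; ribosomal proteins sit to the right at a median of 12006 and receptor and hair keratin-associated genes to the left of the dashed line.

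Cytoskeletal and chromatin genes had a few very bright members over a broad range. Actg1 (12983 ± 1101), Cfl1 (12153 ± 599) and Actb (10395 ± 918), which encode cytoplasmic actins and the actin-severing protein cofilin, led an actin list in which 27 of 42 members were bright or brightest. Vil1, a microvillus protein, had 35.0 ± 33.1 on its single probe set. Of 16 tubulin genes, Tuba4a was the only member of the brightest class (13052 ± 979), and Tubb3, the neuronal β-tubulin, was lowest (17.0 ± 5.30). In the chromatin list, Npm1, Hmgn1 and Rbbp7, a histone-binding subunit of several repressor complexes (13842 ± 1088), were highest among 41 genes, of which 24 were bright or brightest. Tet1, at the median of that list, had 1980 ± 75.8 and Tet3 31.2 ± 6.90, and both convert methylated cytosine to its hydroxylated form. Of 25 histone genes 17 were near background (68%, against 52.4% of all genes), and H2az1, the variant H2A.Z, was brightest (10607 ± 924). H3f3a (81.4 ± 53.1) and H3f3b (49.8 ± 7.21), genes of the replacement histone H3.3 that most cells use, were read near background by 1 probe set each.

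Of 41 genes of the cell cycle 23 were bright or brightest, led by Cdc20, the activator of the anaphase-promoting complex (10460 ± 813), and by the replication helicase subunits Mcm7 (10233 ± 296) and Mcm4 (9192 ± 341). Ccna1, the germline cyclin A, was lowest (49.5 ± 23.7).

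Epiblast and pluripotency genes were bright as a group. Of 29 measured, 4 were in the brightest class, 13 bright, 8 moderate and 4 near background, with a median of 3197. Dppa5a, an RNA-binding protein of pluripotent cells, had 12630 ± 1440, Dppa3, which protects methylation in the zygote, 12265 ± 515, and Fbxo15, an F-box protein under control of the pluripotency factors, 11569 ± 624. The core factors came in the order Pou5f1 (5173 ± 440), Nanog (4838 ± 536) and Sox2 (3230 ± 47.3), where Pou5f1 and Nanog differed by less than their spread. The members near background were Fgf4 (309), Nodal (301), Otx2 (95.4 ± 38.7) and Pecam1 (35.3 ± 3.56), and Otx2 is known for the epiblast after implantation.

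Trophectoderm genes had 4 brightest, 12 bright, 6 moderate and 8 near background among 30. The share bright or brightest was 53.3%, against 58.6% of the pluripotency genes. More were near background (26.7% against 13.8%), and the median was lower, at 2058 against 3197. Krt8 (13466 ± 653) and Krt18 (11320 ± 586), the keratin pair of simple epithelia, stood beside Slc2a3, the high-affinity glucose transporter (12478 ± 627). All 3 probe sets of Krt8 were in the brightest class. The transcription factors of the lineage were lower, in the order Cdx2 (4123 ± 571), Eomes (3725 ± 301), Gata3 (2158 ± 216) and Tead4 (1958 ± 254), and each of these neighbours apart from Eomes and Gata3 differed by less than the larger of their SDs. At the low end were Peg10 (45.4 ± 24.6) and Ascl2 (19.1 ± 0.506), which are needed in the later placenta.

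Primitive endoderm genes were lower: of 27 measured, 0 were in the brightest class, 5 bright, 13 moderate and 9 near background, and the median was 588. Dab2, an endocytic adaptor that trophectoderm also uses, had 8835 ± 463, Gata6, the factor that starts this lineage, 4558 ± 222, and Nid1, a basement membrane protein, 3990 ± 195. Sox17, a later factor of the lineage, was moderate (630 ± 72.2), and Gata4 was near background at a mean of 222, with 269, 212, 197 and 210 on controls 1 to 4. A second Gata4 probe set gave 45.3 ± 21.7. Foxa2 was the lowest of the list at 29.1 ± 3.43.

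**Figure D2:**
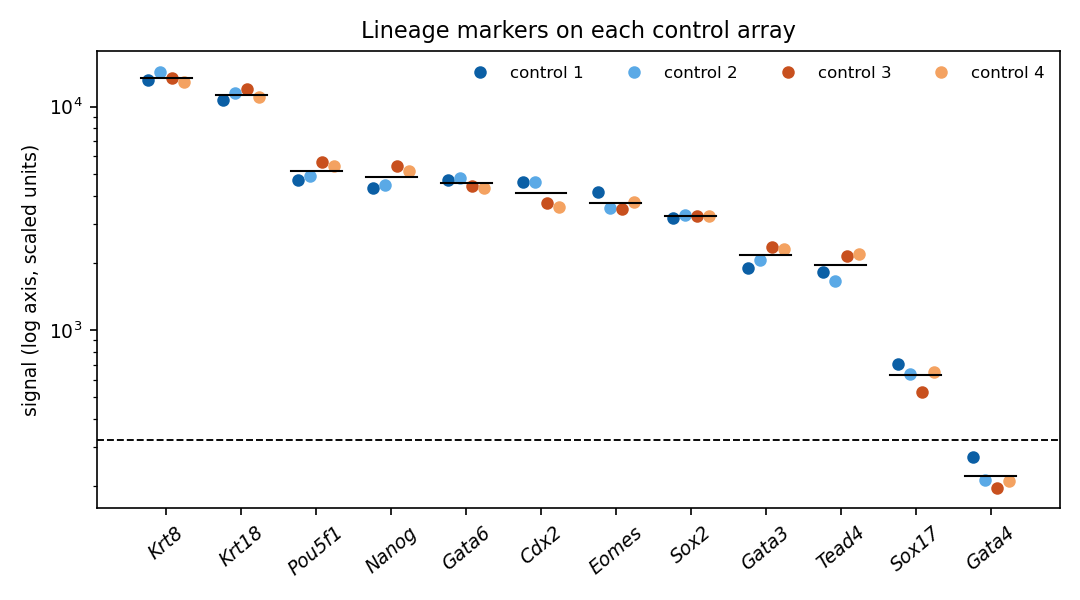
Signal of 12 lineage markers on each control array (log axis, scaled units), 1 point per array at the gene's brightest probe set, with the black bar at the mean and the dashed line at the near-background limit of 323. Krt8 and Krt18 are highest and Gata4 lies below the limit on all 4. Cdx2, Gata6 and, narrowly, Gata4 are higher on controls 1 and 2, while Pou5f1, Nanog, Gata3 and Tead4 are higher on controls 3 and 4.

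The genes of the epithelial seal and of fluid transport were well represented. Of 28 tight junction and cavitation genes, 14 were bright or brightest. Ctnna1 (12814 ± 699), Cdh1 (9389 ± 484) and Epcam (9084 ± 1062), which hold neighbouring cells together, were highest. Aqp9, a water and glycerol channel, had 2250 ± 127 and Cldn4, a claudin, 1332 ± 49.8, while Cftr, a chloride channel, was near background (85.2 ± 26.4). Of 20 claudin genes only Cldn7 was bright (3299 ± 398), and 14 were near background (70%, against 52.4% of all genes). In the Hippo pathway, which sets the outer against the inner fate, all 20 measured genes were above the limit, from Amotl1 (360 ± 16.9) to Amot (4015 ± 218), a scaffold that binds the coactivators Yap1 (3552 ± 206) and Wwtr1 (3426 ± 38.1).

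Metabolic lists ranged from mostly bright to mostly moderate. Slc2a3, Pgk1 (7346 ± 204) and Aldoa (6152 ± 392) led 21 glycolysis genes, with Pkm at the median (1287 ± 219) and Slc16a3, a lactate exporter, lowest (139 ± 50.3). Fabp5, a fatty acid binding protein (13150 ± 525), Hadhb, of mitochondrial fatty acid oxidation (8314 ± 328), and Scd2, a desaturase (7991 ± 192), led 36 lipid genes, in which the nuclear receptor Pparg was lowest (28.2 ± 7.26). Txn1, the metallothionein Mt2 (13146 ± 904) and the mitochondrial dismutase Sod2 (11804 ± 722) led 27 antioxidant genes, of which 15 were bright or brightest. Psat1 (11085 ± 676) and Phgdh (10142 ± 613), enzymes of serine synthesis, and the transcription factor Atf4 (8805 ± 693) led the 28 genes of the amino acid response, and Fgf21 was lowest (25.6 ± 10.1). Sterol synthesis was moderate, with 14 of 22 genes in that class and Hmgcs1 highest (3133 ± 493).

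The lists of growth factors and receptors, calcium handling, AP-1 and immediate early genes and p53 targets held 0 genes of the brightest class. Of all genes only 1.24% were in that class, so counts of 0 in lists this short say little. Other stress lists did reach it, with 4 of 29 cytosolic heat shock genes, 2 of 28 of the amino acid response and 1 of 23 ER genes. A further 16 of the cytosolic heat shock genes were bright. Shares near background are read against the 52.4% of all genes. Of 39 growth factors and receptors 19 were near background (48.7%) and 3 bright, namely Erbb3, a receptor of the EGF family (3700 ± 217), Pdgfa (2266 ± 61.9) and Igf2r (1685 ± 451). Of 36 genes of calcium handling 16 were near background (44.4%), and the highest were 2 proteins of the endoplasmic reticulum, Calr (7904 ± 339) and the calcium pump Atp2a2 (7348 ± 325). S100g, a calcium-binding protein, was lowest (14.6 ± 4.06). Of 33 AP-1 and immediate early genes 3 were bright, Btg1 (7171 ± 739), Klf4 (4079 ± 374) and Jund (2952 ± 223), and 12 were near background (36.4%) with Egr2 lowest (36.1 ± 16.7). Among 21 p53 target genes, 5 were bright, led by Perp (3275 ± 294), 6 were near background (28.6%), and Fas was lowest (15.1 ± 2.72). All 23 ER chaperone and unfolded protein genes were above the limit, with Hspa5, the Hsp70 of the endoplasmic reticulum, highest (9940 ± 536).

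Most oocyte and maternal-effect genes were near background, with exceptions. Of 38 measured, 27 were near background (71.1%, against 52.4% of all genes), among them Gdf9 (272 ± 57.7), Zp3 of the zona pellucida (221 ± 31.0) and Mos, the kinase of meiotic arrest (14.3 ± 0.317). Khdc3, a part of the subcortical maternal complex, was nevertheless in the brightest class (13042 ± 702), with 12615, 14091, 12709 and 12753 on controls 1 to 4, and Dppa3 was too. Ooep, another part of that complex, was bright at 1704. Of 8 measured genes known from the onset of embryonic transcription, Eif1a (5039 ± 241) and Eif1ad (3224 ± 148) were bright, Ubtfl1 had 831 ± 189 and Tdpoz1 196 ± 17.7. Of 35 imprinted genes 20 were near background (57.1%), a share close to that of all genes, and Ube3a (2565 ± 94.2), Slc38a4 (2028 ± 60.4) and Igf2r were highest.

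Genes of both sex chromosomes gave signal. Ddx3x, an X-linked RNA helicase, was in the brightest class (11321 ± 1259), and the X-linked Rlim (7634 ± 841) and Eif2s3x (5034 ± 449) were bright. Xist, the RNA that coats the inactive X chromosome, had 4197 ± 419 on its brightest probe set. Of the Y-linked genes, Eif2s3y had 803 ± 43.7, with 757, 799, 793 and 862 on controls 1 to 4, while Uty (182 ± 24.3) and Kdm5d (139 ± 34.5) were near background. The Eif2s3y values of the 4 arrays were close to each other.

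Families of later tissues were near background almost throughout. Of 33 Hox genes, which pattern the body axis, 30 were near background (90.9%, against 52.4% of all genes), and the highest was Hoxa3 (399 ± 44.2). Of 44 keratin genes, Krt8 and Krt18 were brightest, 7 were moderate, led by Krt42 (1049 ± 42.5), and 35 were near background (79.5%). Of 70 cytochrome P450 genes 63 were near background (90%), and Cyp2s1 was bright (5698 ± 272). Of 73 interleukin and interleukin receptor genes 62 were near background (84.9%) and 0 bright.

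Markers of cells that could travel with embryos were low on all 4 arrays. The cumulus and granulosa list had 11 of 14 genes near background, with Star highest (614 ± 35.5) and Has2 at 81.8 ± 27.6, and its summed signal ran from 2373 to 2724 over the arrays. The oviduct and uterine list had 9 of 13 near background, with Wfdc2 highest (1216 ± 187) and Ovgp1, the oviductal glycoprotein, at 297 ± 37.6. Blood had 15 of 17 near background, with Hba-a1 at 190 ± 37.6 and Ptprc at 107 ± 15.6. Liver had 14 of 15 near background (Alb 159 ± 38.3), muscle 19 of 22, sperm and testis 17 of 20, neuron and glia 13 of 17, and fibroblast 9 of 12. The shares near background ran from 69.2% for oviduct and uterus and 75% for fibroblast to 93.3% for liver, against 52.4% of all genes. The bright exceptions in these lists were Mylpf, a light chain of fast muscle myosin (3325 ± 119), Sycp3, of the meiotic chromosome axis (2819 ± 147), and Fn1, fibronectin (1678 ± 109). Each of these had a coefficient of variation under the median of the moderate class, 9.95%. The median of the bright class, to which they belong, was 6.39%, and Fn1 was not under it. Whether these signals come from blastocyst cells was not tested.

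How far a class belongs to a gene and how far to a probe set was visible in the genes measured more than once. For 9010 genes with several probe sets the median ratio of the highest to the lowest was 5.65, 54.1% fell into more than 1 class, and 1168 genes had a probe set in the top 10% and another near background. Gata6, for example, had probe sets at 4558 ± 222, 922 ± 75.7 and 204 ± 90.3, and Cdx2 at 4123 ± 571 and 210 ± 82.1. Of the brightest probe sets 84% carried a name suffix (a, s or x) that marks probes shared between transcripts, against 13.7% in the near-background class, and 70.7% were paired with a single gene.

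Promoters of bright and moderate genes had similar CpG counts. Matching by gene identifier gave a RefSeq promoter, taken as 250 bases before to 50 after the start, for 185 of the 225 genes of the brightest class, and their median was 24 CpG and 60.7% GC. Bright genes had a median of 23 CpG and moderate genes 21, and all 27025 promoters of the table, which also holds genes that the array does not measure, had 7. All genes of the array had a median of 17 CpG and TATAAA in 9.85%, but only 79.0% of them had a promoter in the table, so the comparison with them is void under the 80% set for it. TATAAA on either strand was present in 7.03% of the promoters of the brightest genes, 6.59% of the bright and 6.13% of the moderate, and in 14.2% of all promoters. CCAAT was present in 48.1% of the brightest, 38.3% of the bright and 37.9% of all promoters. Of near-background genes 76.4% had a promoter in the table, so that class was not compared either. Hair keratin-associated genes, 35 of 38 near background, showed the other extreme: 58.3% of their 36 promoters held TATAAA between 40 and 20 bases before the start, against 2.09% of all promoters, with a median of 2 CpG.

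The 4 arrays fell into 2 pairs. Over all 45037 probe sets, log2 signals correlated at 0.981 between controls 1 and 2 and at 0.981 between controls 3 and 4, and at 0.976 to 0.977 across the pairs. Among the 28803 probe sets with a mean of at least 100, those that differed by 2-fold or more numbered 464 and 510 within the pairs and 665 to 718 across them. The split was read from these arrays and no label gives a batch, so everything that follows is a description without a test. Among values that went with the split were the ratios of 3′ to 5′ probe sets, which are lower where labelled RNA reaches further towards the 5′ end. The 5′ probe set of 18S ribosomal RNA gave 2409 and 2559 on controls 1 and 2 and 878 and 883 on controls 3 and 4. For Gapdh the ratio was 6.28 and 5.76 on controls 1 and 2 and 7.62 and 8.90 on controls 3 and 4, and for Actb 1.59 and 1.67 against 2.69 and 2.64. The part of RNA length or labelling in the differences below was not tested, and embryo collection and array processing cannot be told apart.

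A gap was defined as the distance in log2(signal + 32) between the nearest arrays of the pairs, so that a gap of 1 or more means that both arrays of a pair exceeded both of the other by about 2-fold. Past it were 61 probe sets higher on controls 1 and 2 (0.212% of 28803) and 27 higher on controls 3 and 4 (0.0937%). They belonged to 51 genes (0.365% of 13975) and 26 genes (0.186%). Of the 61, 9 were bright, 15 moderate and 37 near background, and of the 27, 0 were bright, 3 moderate and 24 near background. With arrays scaled to the median of all probe sets the counts were 50 and 39. The counts rested on each array: leaving out control 3 or control 4 gave 216 or 222 higher on controls 1 and 2, leaving out control 1 or control 2 gave 98 or 92, and in the other direction the counts were 85 and 56 without control 3 or 4 and 148 and 150 without control 1 or 2. With a single array left in a pair, only that array has to pass.

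**Figure D3:**
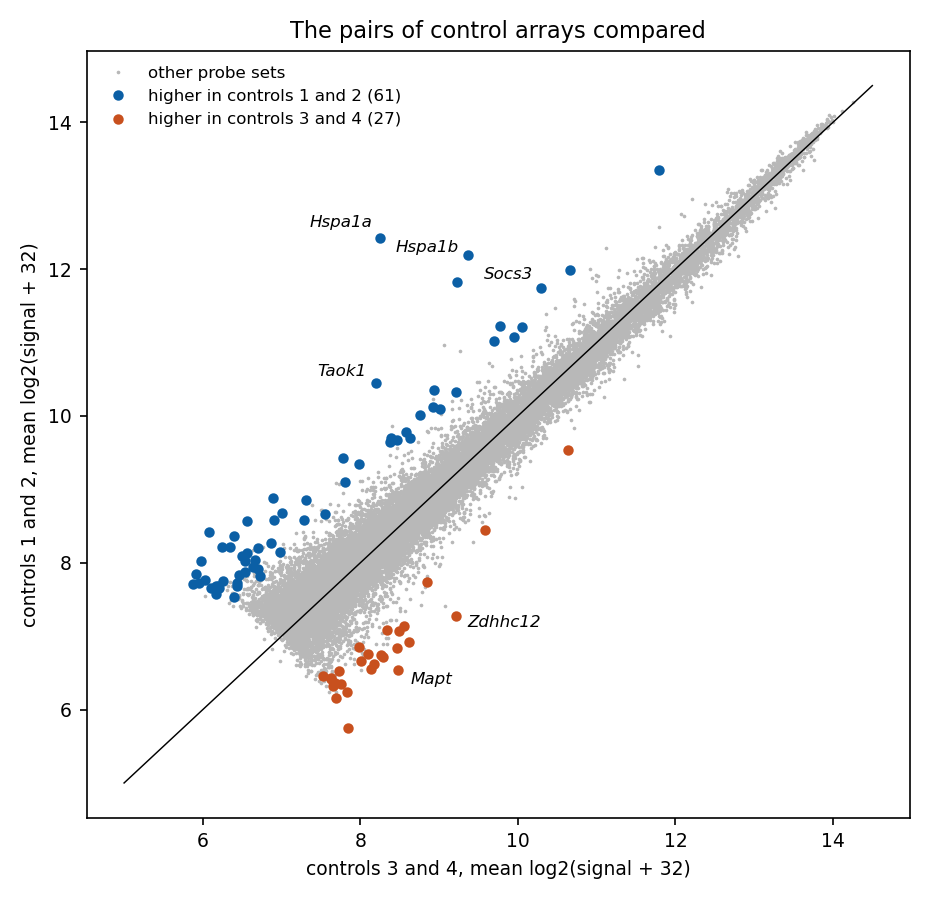
Mean log2(signal + 32) of controls 1 and 2 against that of controls 3 and 4 for 28803 probe sets, with the line of equality; coloured points are past the gap of 1. The 61 blue points include Hspa1a and Hspa1b far above the line, and the 27 orange points lie mostly at low signal.

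The widest gap belonged to the stress-inducible Hsp70 genes. Hspa1a gave 5717 and 5219 on controls 1 and 2 and 260 and 284 on controls 3 and 4, a gap of 4.06. The 3 probe sets of Hspa1b were all past the gap: 10269 and 10477 against 3507 and 3547, 4564 and 4707 against 577 and 689, and 3697 and 3518 against 589 and 543. On every one of the 4 probe sets the pairs were far apart and the arrays of a pair close. Hspa1a and Hspa1b are neighbouring copies with nearly the same sequence, so the signal cannot be assigned to either. Their promoters are shown because probe sets paired with each gene were high on the same arrays. The 250 bases before each start, in build GRCm38.p6, follow. The heat shock element core GAANNTTC is in capitals (this word reads the same on both strands).
Hspa1a (chr17:34972157-34972406, minus strand): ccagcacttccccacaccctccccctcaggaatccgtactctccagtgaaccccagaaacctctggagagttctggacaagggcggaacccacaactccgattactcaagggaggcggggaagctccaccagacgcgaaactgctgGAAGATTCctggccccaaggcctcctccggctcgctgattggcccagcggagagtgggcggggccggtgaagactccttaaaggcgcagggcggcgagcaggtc
Hspa1b (chr17:34959239-34959488, minus strand): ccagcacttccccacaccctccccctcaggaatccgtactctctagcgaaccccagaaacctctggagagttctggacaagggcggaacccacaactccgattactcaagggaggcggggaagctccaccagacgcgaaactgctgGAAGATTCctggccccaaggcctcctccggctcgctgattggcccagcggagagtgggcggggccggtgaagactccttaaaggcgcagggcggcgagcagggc
The sequences were identical at 247 of 250 positions and each held the word once. GAANNTTC was present in 11 of 24 promoters of the cytosolic heat shock list (45.8%) and in 7.95% of all promoters. It was present in 3 of 45 (6.67%) promoters of genes past the gap on controls 1 and 2. Hspa1a and Hspa1b were among both the 11 and the 3.

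Apart from Hspa1a and Hspa1b, the brightest probe set of no cytosolic heat shock gene was past the gap. Of 28 tested genes of the list, those 2 included, 14 were higher on controls 1 and 2 without overlap and 3 on controls 3 and 4, where 24.9% and 25.2% of 13975 genes lay apart in each direction. With arrays scaled to the median the counts were 9 (32.1%) and 8 (28.6%), where 15.4% and 36.6% of all genes lay apart. Leaving out 1 array raised the shares of all genes to between 36.8% and 39.5% on controls 1 and 2 and between 35.9% and 38.0% on controls 3 and 4, against which counts without 1 array are to be read. Hspb1, a small heat shock protein, gave 2628 and 2992 against 2162 and 1915, and Dnajb1, a partner of Hsp70, 6004 and 6239 against 5364 and 4865. In the opposite direction, Hspa4 gave 4776 and 4790 against 5619 and 5723, and Ahsa1 6887 and 6457 against 7833 and 7653. Hspa4l, also an Hsp110 chaperone, had 1 probe set of 5 past the gap, with 193 and 162 against 22.2 and 31.6.

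Most other genes past the gap were carried by a single probe set. Of the 44 genes higher on controls 1 and 2 that had several probe sets, 3 had more than 1 past the gap, namely Hspa1b, Socs3 and Syncrip. Of their 85 other tested probe sets 39 lay on the same side without overlap and 16 on the opposite side, where 27.6% of all 28803 probe sets lay apart with controls 1 and 2 higher and 21.5% with controls 3 and 4 higher. Socs3, an inhibitor of cytokine signalling, gave 3983 and 4066 against 1538 and 1631 on 1 probe set, 3160 and 3679 against 1176 and 1273 on another, and 318, 330, 161 and 283 on the third. Syncrip, an RNA-binding protein, was past the gap on 2 of 5 probe sets. Irf1, an interferon-response factor with a single probe set, gave 741 and 576 against 210 and 167.

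For several genes the brightest probe set did not share the gap of the dimmer one. Taok1, a kinase that acts upstream of Hippo signalling, gave 1197 and 1545 against 238 and 288 on 1 probe set, but 1410 and 1418 against 1237 and 1212 on its brightest. Srrm2, a splicing factor, gave 327 and 371 against 71.9 and 53.1, but 4893 and 4899 against 5823 and 5657 on its brightest, which lay on the opposite side. Enah, an actin regulator, gave 231 and 228 against 28.0 and 34.7 on a dim probe set, while its brightest gave 9838, 10135, 10017 and 9518. Nufip2 (1308 and 1256 against 446 and 470) and Xist (461 and 403 against 140 and 115), a noncoding nuclear RNA, had all their other probe sets on the same side but short of the gap, and the brightest of Xist read 4307 and 4683 against 4121 and 3675. For Malat1, also a noncoding nuclear RNA, the probe set past the gap was its brightest (2321 and 2405 against 771 and 929). Of its 6 others, 4 lay on the same side and 2 overlapped, among them 1 at 1124, 1447, 1407 and 1646. Diaph3 (292 and 304 against 60.7 and 44.5), Cpeb2 (280 and 249 against 28.2 and 64.0), Polr1a (196 and 354 against 46.4 and 51.8) and Phf7 (266 and 260 against 76.5 and 67.2) complete the 12 largest.

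**Figure D4:**
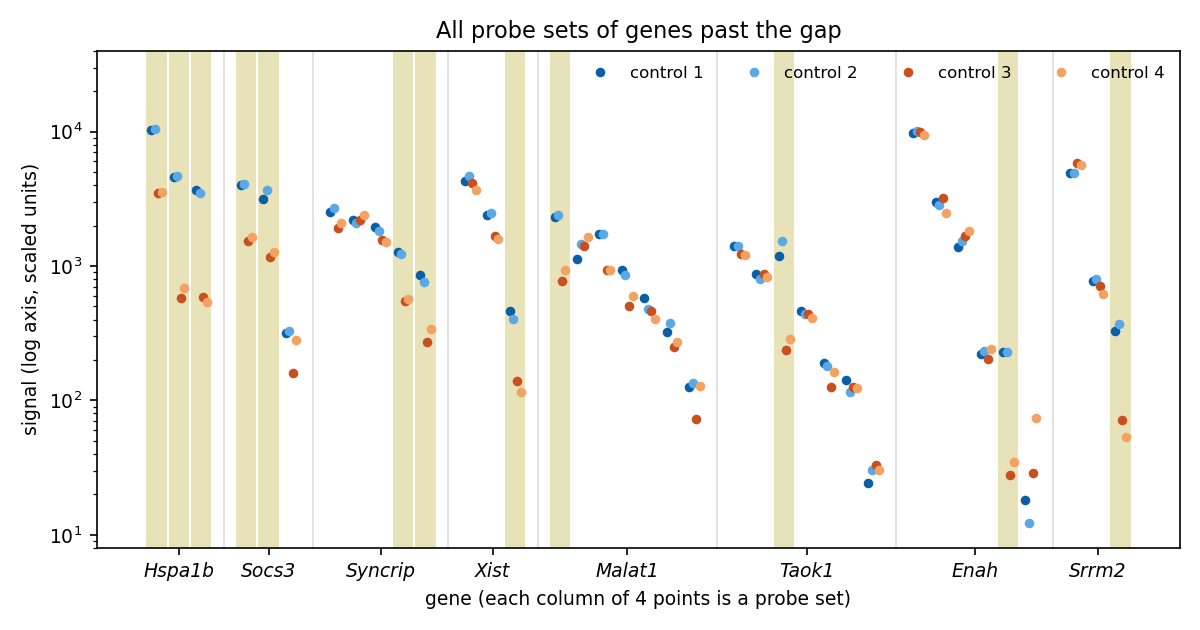
Signal (log axis, scaled units) of every probe set of 8 genes with a probe set past the gap on controls 1 and 2, each column of 4 points being 1 probe set, in order of mean signal within a gene; shaded columns are past the gap. All 3 columns of Hspa1b are shaded, while Taok1, Enah, Srrm2, Xist and Malat1 each have 1 shaded column beside others that are not past the gap.

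Probe sets higher on controls 3 and 4 were dim. Mapt, the microtubule protein tau, gave 71.8 and 51.6 against 305 and 347, and Rpf2, a ribosome assembly factor, gave 65.0 and 59.2 against 249 and 251. The other probe sets of these genes were unlike them, with the brightest of Mapt at 312, 358, 265 and 228 and the brightest of Rpf2 at 4306 and 4383 against 5059 and 5049. Zdhhc12, a palmitoyltransferase with a single probe set, gave 164 and 91.2 against 665 and 472. Dgkz, Slc5a5, Exd2, Fbxo6, Yes1, Dhx38, 2610316D01Rik, Mad1l1 and Sdr39u1 followed, with gaps from −1.39 for Dgkz to −1.12 for Sdr39u1, negative because controls 3 and 4 were higher. None of the 15 such genes with several probe sets had more than 1 past the gap, and of their 20 other tested probe sets 7 lay on the same side and 4 on the opposite, where 21.5% and 27.6% of all probe sets did. Cdkn1a, the p21 cell cycle inhibitor, gave 40.7 and 38.6 against 174 and 177 on a dim probe set and 776, 603, 731 and 729 on its brighter. The brightest probe sets past the gap in this direction, named after their values were seen, were those of Alg1, a mannosyltransferase (670 and 750 against 1538 and 1571), and Atg101, of autophagy (295 and 337 against 724 and 743).

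Small differences ran through whole families. These counts of members whose pairs did not overlap were chosen after the values were seen. Of 76 mitochondrial ribosomal protein genes, 59 were higher on controls 3 and 4 and 4 on controls 1 and 2, with a median difference of −0.18 in log2 (controls 1 and 2 minus controls 3 and 4), where 25.2% and 24.9% of all genes lay apart and the median of all was 0.01. Mrps5 gave 637 and 650 against 1012 and 1010, Mrpl37 671 and 678 against 957 and 983, and Mrps25 629 and 662 against 908 and 882. Under the 8 other settings run, 40 (52.6%) to 66 (86.8%) of the 76 were higher on controls 3 and 4 and 0 to 10 on controls 1 and 2. The median stayed between −0.25 and −0.12. The 40 came with the probe sets of a gene averaged, where 21.6% of all genes were higher on controls 3 and 4. The 66 came with arrays scaled to the median, where 36.6% of all genes were. No member was past the gap of 1. Over all probe sets the median difference also varied with signal, from 0.07 in the lowest decile to −0.03 in the ninth, and its part in the family values was not tested.

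Oxidative phosphorylation had 48 of 80 genes higher on controls 3 and 4 and 5 on controls 1 and 2, with a median of −0.13. Ndufs5, a subunit of complex I, gave 510 and 677 against 1004 and 965, and 2 complex III subunits, Uqcrq and Uqcrc1, gave 2729 and 2777 against 3668 and 3831 and 3374 and 3347 against 4435 and 4422. The same 8 settings gave 49 (61.25%) to 60 genes (75%) and medians from −0.21 to −0.11. The share of all genes higher on controls 3 and 4 ran from 21.6% with probe sets averaged to 38.0% without control 1. Genes higher on controls 1 and 2 numbered 19 (23.8%) without control 1 or control 3, against 37.1% and 39.5% of all genes. The cytosolic ribosomal proteins, by contrast, had 3 of 44 genes higher on controls 3 and 4 and 2 on controls 1 and 2. Their median of 0.03 was below 0 under 5 of the 8 other settings. Without control 1 the count on controls 1 and 2 was 30 (68.2%, against 37.1% of all genes), and without control 2 that on controls 3 and 4 was 19 (43.2%, against 35.9%). The proteasome had 18 of 44 genes (40.9%) higher on controls 3 and 4 and 3 (6.82%) on controls 1 and 2, where 25.2% and 24.9% of all genes lay apart. The first count was 32 without control 2 (72.7%, against 35.9% of all genes). It was 30 with arrays scaled to the median (68.2%, against 36.6%). The second was 15 without control 1 (34.1%, against 37.1%). The lysosome had 12 of 25 genes (48%) higher on controls 3 and 4 and 4 (16%) on controls 1 and 2. When the probe sets of a gene were averaged, these counts were 6 (24%) and 7 (28%), against 21.6% and 26.2% of all genes.

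Lineage genes differed in both directions. Cdx2 gave 4618 and 4609 against 3721 and 3545, and its dimmer probe set 283 and 276 against 165 and 118. Gata6 gave 4697 and 4792 against 4421 and 4323, and its other probe sets lay on the same side. Gata4, near background, gave 269 and 212 against 197 and 210. Pou5f1 gave 4708 and 4910 against 5665 and 5408, Nanog 4317 and 4455 against 5423 and 5158, and Dppa5a 10965 and 11893 against 13931 and 13732. Gata3 gave 1896 and 2067 against 2356 and 2313, and Tead4 1825 and 1667 against 2152 and 2188. For Tead4 the second probe set lay on the same side. In the pluripotency list 9 of 27 genes (33.3%) were higher on controls 3 and 4 and 4 (14.8%) on controls 1 and 2, where 25.2% and 24.9% of all genes were. In the trophectoderm list the counts were 6 (23.1%) and 10 (38.5%) of 26. Without control 2, 14 pluripotency (51.9%) and 11 trophectoderm genes (42.3%) were higher on controls 3 and 4, against 35.9% of all genes. On controls 1 and 2 the counts were then 5 (18.5%) and 14 (53.8%), against 38.9% of all genes. Without control 1, 13 pluripotency genes (48.1%) were higher on controls 1 and 2, against 37.1% of all genes. On controls 3 and 4 there were then 10 (37.0%), against 38.0%. The list medians were 0.01 and 0.05, against 0.01 over all genes, and −0.06 and −0.03 with arrays scaled to the median, against −0.07 over all genes. Sox2 gave 3166, 3278, 3249 and 3226, with the pairs overlapping.

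Sex-linked genes leaned towards controls 1 and 2. Of 16 tested, 9 (56.25%) were higher there and 0 on controls 3 and 4, with a median of 0.15, where 24.9% and 25.2% of all genes lay apart. Under the 8 other settings 7 to 12 were higher there and 0 to 3 on controls 3 and 4. The share of all genes higher on controls 1 and 2 ran from 15.4% with arrays scaled to the median to 39.5% without control 3. The X-linked genes among the 9 were Ddx3x, Rlim, Eif2s3x, Xist, Kdm6a, Usp9x and Ftx, and the Y-linked ones Uba1y and Kdm5d. Kdm6a, a histone demethylase, gave 1614 and 1472 against 1174 and 1212, Rlim 8196 and 8475 against 6692 and 7174, and Ftx 245 and 239 against 175 and 142. The Y-linked Eif2s3y overlapped between the pairs, as did Uty. Of 15 tested Hox genes, all of low signal, 6 (40%) were higher on controls 1 and 2 and 0 on controls 3 and 4. Without control 3 the first count was 11 (73.3%, against 39.5% of all genes). Of 260 Zfp zinc finger genes the counts were 95 (36.5%) and 42 (16.2%). These became 61 (23.5%) and 62 (23.8%) with arrays scaled to the median, where 15.4% and 36.6% of all genes lay apart.

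**Figure D5:**
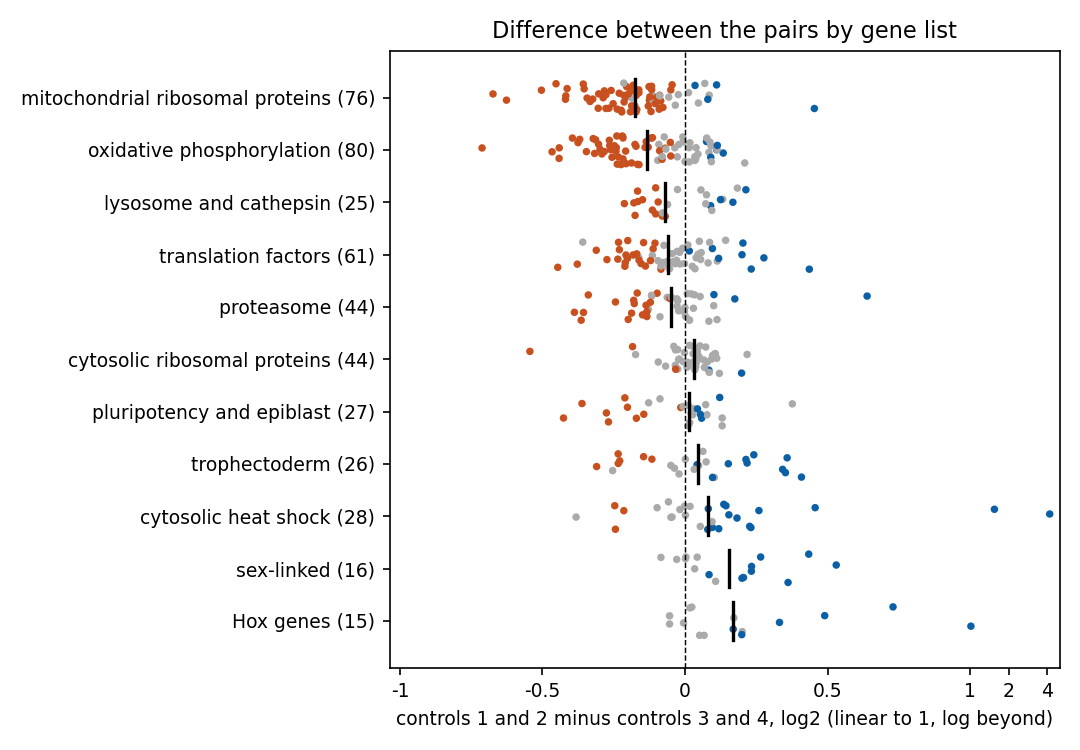
Difference in mean log2(signal + 32) of controls 1 and 2 minus controls 3 and 4 for the genes of 11 lists (linear to 1, log beyond), 1 point per gene at its brightest probe set, with the number of genes in parentheses and the black bar at the median. Blue points are higher on controls 1 and 2 and orange on controls 3 and 4 without overlap, grey points overlap; mitochondrial ribosomal proteins lie mostly left of 0 (median −0.18) and Hspa1a stands at the far right.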

How the data were processed

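Total RNA was amplified, labelled and hybridized to Affymetrix mouse arrays, and the authors deposited MAS5 signal intensities per probe set, per the submitters' processing notes. Those notes name no version. Control arrays were taken by title. Each deposited column had the same trimmed mean, so intensities were multiplied by 3.33 to give a 2% trimmed mean of 500. Pair differences used log2(signal + 32) over probe sets with a mean of at least 100. Python 3.11.15, pandas 2.3.3, numpy 2.4.6, scipy 1.17.1 and matplotlib 3.10.9 were used, and the gap calculation was tested on simulated data. Probe sets were paired with genes through the platform annotation and RefSeq (34741 of 34945 matched).

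Named were the 25 brightest genes, up to 3 highest, the median and the lowest member of each of 52 lists, the lineage markers, 5 stems at each end and the 12 largest gaps each way (mean of at least 200 in the higher pair). Further list members, defining markers of other cell types, Socs3, Syncrip, Malat1, Hspa4l, Cdkn1a, Alg1 and Atg101 were named after their values were seen, and so were the windows for TATAAA and the pyrimidine tract. Members and lists were chosen with earlier results of these data known. No test was made, because the pairs of controls were read from the same arrays. The number of arrays limits the precision. Alternatives changed the scaling, the value added before log2, the minimum, the gap, the reference and the arrays used.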

Additional observations from a re-analysis of the deposited data

Results flagged for a closer look

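Of 70 signals checked for an array far from the other 3, 1 stood apart. Cct4, a chaperonin subunit, read 15468 on control 2, while the other arrays lay between 14086 and 14268. Chance alone would put about 1 in 20 such groups past the limit used.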

How the results depend on the processing

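The brightest class shared 442 to 449 of its 450 probe sets with every alternative run, and the near-background class held 29414 to 33899. Probe sets higher on controls 1 and 2 (61) and on controls 3 and 4 (27) numbered 100 and 61 with 1 added before log2, 25 and 4 with 100 added, 99 and 54 with no minimum, 24 and 4 with a minimum of 300, 426 and 222 at a gap of 0.5, and 12 and 4 at a gap of 1.5. Leaving out 1 array gave 92 to 222 and 56 to 150. Quantile normalization gave 54 and 37, and hybridization control scaling 54 and 35. Among the named genes, picked for the largest gaps, 11 of 12 higher on controls 1 and 2 stayed past the gap in all 9 alternatives run. Polr1a was the exception. In the other direction 3 of 12 did so (Mapt, Rpf2 and Zdhhc12). Leaving out 1 array, or adding only 1 before log2, can only keep or widen a gap, so those alternatives could not fail. Quantile normalization, the other scalings and the 100 added could. No direction reversed, and only the normalization and the scalings could have reversed one. The alternatives for lists were chosen after seeing the data. No paired analysis was possible because a single group was analysed. Below the near-background limit, the spread between arrays limits what can be ordered.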
